A study of Mus musculus with 24 samples.

Results

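Variants in a small set of genes are linked to amyotrophic lateral sclerosis (ALS) or to spinal muscular atrophy. In ALS motor neurons degenerate, and in spinal muscular atrophy they are lost early in life. The mouse forms of 9 of these genes were followed here in stem cell-derived motor neurons: Sod1, Tardbp, Vcp, Optn, Tbk1, Sqstm1, Smn1, Vapb and Atxn2. The rule for choosing them was their link to these diseases. It uses no measured value, but the members were chosen with earlier results of these data known. All 9 were found by symbol among the 22889 gene entries of the table, and all 9 were above 0 in all 24 samples. In ALS, oculomotor neurons, which move the eyes, are largely spared while spinal motor neurons are lost, so the question was whether the 2 kinds of neuron differ in the levels of these transcripts.

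The 9 proteins work in a few linked processes. Sod1 is a cytosolic copper-zinc enzyme that removes superoxide. Tardbp (TDP-43) is a nuclear RNA-binding protein that controls splicing and is found in cytoplasmic aggregates in most ALS patients, and Atxn2 is an RNA-binding protein of stress granules that modifies the toxicity of TDP-43. Smn1 assembles the small nuclear ribonucleoproteins of the spliceosome, and its loss causes spinal muscular atrophy. Vcp is an AAA ATPase that pulls ubiquitinated proteins out of complexes and membranes. Optn and Sqstm1 (p62) are autophagy receptors that tie ubiquitinated cargo to the autophagosome membrane, and Tbk1 is the kinase that activates them. Vapb sits in the endoplasmic reticulum membrane and holds contact sites with other organelles.

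In all, 4 groups of 6 samples were compared. Oculomotor cultures came from a mouse embryonic stem cell line with the Islet1-GFP reporter and Phox2a driven in neural progenitors by the nestin enhancer (Islet1-GFP/NesEPhox2A), and were patterned as embryoid bodies for 5 days with 250 nM of the Smoothened agonist SAG and 100 ng/ml Fgf8. Spinal cultures came from an Hb9-GFP line without the Phox2a transgene, and received 500 nM SAG and 100 nM retinoic acid for 5 days. Each culture was sorted into a GFP-positive fraction and a GFP-negative fraction. The GFP-positive samples are called motor neurons below by that label alone. Pluripotency genes summed to as much as 12398 RPKM in spinal GFP-positive samples, so the name does not mean pure motor neurons. Line, transgene, reporter and morphogens all changed together between the cultures, so their parts in a difference between oculomotor and spinal samples cannot be told apart.

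The libraries held 752529 to 7675428 reads, as recovered from the steps of the RPKM values (reads scaled to transcript length and to the mapped reads of the library). Replicates 5 and 6 were deeper (4822576 to 7675428) than replicates 1 to 4 (752529 to 4642207). The sorts were checked on 9 motor neuron markers, whose summed level was 373 to 808 RPKM in oculomotor and 61.4 to 379 RPKM in spinal GFP-positive samples, against 10.2 to 36.4 and 7.60 to 89.9 RPKM in the GFP-negative ones. Libraries of 2 spinal pairs stood apart. In spinal pair 4 the fractions did not separate by label: the neuronal tubulin Tubb3 was 36.4 RPKM in the GFP-positive and 51.5 RPKM in the GFP-negative library, and the motor neuron gene Mnx1, which encodes Hb9, was 43.1 and 69.4 RPKM. In the spinal GFP-negative replicate 2, 3 predicted genes (Gm10800, Gm10801 and Gm21738) took 68.8% of the summed RPKM, and in the GFP-positive replicate 2 they took 17.8%.

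The sequences upstream of Sod1 and Smn1 are shown because these 2 members differed between the oculomotor fractions, in the paired fit only. They are the 250 bases before the RefSeq transcription start in GRCm38.p6, 5′ to 3′ in the direction of transcription. Capitals mark matches, on either strand, to the 6 motifs searched. The letters TATAAA stand for the TATA box and CCAAT for the CCAAT box. GGGCGG is the core of the GC box, and CGGAAG is a site of the ETS family. The E box was searched as CACGTG, and the cAMP response element as TGACGTCA. The Sod1 window is chr16:90220512-90220761 on the plus strand and the Smn1 window chr13:100124605-100124854 on the plus strand.
Sod1: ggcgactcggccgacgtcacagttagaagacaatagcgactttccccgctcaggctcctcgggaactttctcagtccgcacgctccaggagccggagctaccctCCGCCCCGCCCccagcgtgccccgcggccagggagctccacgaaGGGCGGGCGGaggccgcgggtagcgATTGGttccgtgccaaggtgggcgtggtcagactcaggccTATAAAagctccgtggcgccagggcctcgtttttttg
Smn1: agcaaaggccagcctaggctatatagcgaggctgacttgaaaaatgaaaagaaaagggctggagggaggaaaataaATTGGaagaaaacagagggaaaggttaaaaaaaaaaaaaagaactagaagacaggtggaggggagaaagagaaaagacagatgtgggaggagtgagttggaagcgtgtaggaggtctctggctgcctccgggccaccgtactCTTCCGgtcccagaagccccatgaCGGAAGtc
The Sod1 window had a TATAAA match 37 bases and a CCAAT match 77 bases upstream of the start, and 4 GGGCGG matches, of which 2 pairs overlapped. The Smn1 window had neither TATAAA nor GGGCGG, but a CCAAT match 174 bases upstream and 2 CGGAAG matches 32 and 8 bases upstream. In the windows of the 9 members, 1 for each gene, GGGCGG was present in 7, CCAAT in 3, CGGAAG in 3, TATAAA in 2, CACGTG in 1 and TGACGTCA in 0. The RefSeq start used for Atxn2 was 272 bases downstream of its GENCODE start. Its window, which held the CACGTG match, thus lay inside the GENCODE gene. Among all 32851 promoters of the RefSeq table the shares were 32.7% for GGGCGG, 33.8% for CCAAT, 13.6% for CGGAAG, 12.4% for TATAAA, 6.0% for CACGTG and 1.5% for TGACGTCA. The CCAAT match was the only one of these letters that the Sod1 and Smn1 windows shared.

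Sod1 was the highest of the 9 transcripts, with a mean of 1347 ± 717 RPKM (SD, n = 6) in the oculomotor GFP-positive group and 2243 ± 1637 RPKM in the spinal one. Its lowest percentile among all genes of a sample was 99.6 over the 24 samples, and it stood above the next member, Vcp, in each of them. Its transcript is short (an effective length of 646 bases by the steps of its RPKM), and its values rested on 537 to 24516 reads. Sod1 lies at chr16:90220754-90226329 (GRCm38, plus strand). A processed pseudogene, Gm8566, is 97.8% identical over 462 bases and has no row in the table, so reads from the 2 could have been split or shared.

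Vcp came second in all 4 groups, with means from 114 ± 87.5 RPKM in spinal GFP-negative to 150 ± 108 RPKM in spinal GFP-positive samples. It was above Tardbp in all 24 samples. Vcp (chr4:42979963-43000507, minus strand) shares 216 exonic bases with a gene on the opposite strand, 1700022I11Rik, and has a processed copy, Vcp-rs, that is 99.0% identical over 2418 bases. Tardbp (chr4:148612382-148627019, minus strand) followed with means of 35.2 ± 11.7 to 46.9 ± 14.3 RPKM. It varied least of the members over the 24 samples, with a highest value 4.33 times the lowest. By the same measure Atxn2 varied most, at 21.8 times.

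Sqstm1 (chr11:50199366-50210827, minus strand) and Smn1 (chr13:100124852-100137690, plus strand) formed the middle of the range. Mean Sqstm1 was nearly level across the groups, between 23.2 ± 16.8 and 23.7 ± 11.4 RPKM. Smn1 means lay between 13.6 ± 10.2 and 24.4 ± 16.3 RPKM, and which of these neighbours was higher depended on the sample: Sqstm1 exceeded Smn1 in 4 of 6 oculomotor and 5 of 6 spinal motor neuron samples. The other autophagy members were low. Tbk1 (chr10:121546455-121586787, minus strand) had means of 4.82 ± 2.34 to 6.20 ± 3.08 RPKM, and Optn (chr2:5020642-5064051, minus strand) of 2.93 ± 2.47 to 4.00 ± 0.886 RPKM. Atxn2 (chr5:121711337-121816493, plus strand) was at 3.79 ± 2.07 to 7.93 ± 5.72 RPKM and Vapb (chr2:173737511-173784336, plus strand) at 2.58 ± 1.91 to 4.38 ± 3.33 RPKM. Neighbours among these 4 changed order from sample to sample in oculomotor and spinal motor neurons alike. Reads behind them were few: 6 to 109 for Optn, 13 to 203 for Tbk1 and 21 to 183 for Vapb. Whole reads could not be recovered for Atxn2. Tardbp, Vcp, Optn, Sqstm1 and Atxn2 overlap exons of a gene on the opposite strand, and the libraries carry no strand, so a share of their reads cannot be assigned.

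Some relatives of the members stood at other levels. Vapa, the paralog of Vapb, had means of 299 ± 222 to 518 ± 710 RPKM, far above Vapb in each sample group, and mitochondrial Sod2 had 24.9 ± 13.0 to 40.8 ± 18.6 RPKM, far below Sod1. Atxn2l had 7.80 ± 7.04 to 22.3 ± 16.6 RPKM. The autophagy receptors Nbr1 (7.48 ± 2.64 to 17.97 ± 9.0 RPKM) and Calcoco1 (1.73 ± 1.28 to 3.90 ± 2.76 RPKM) were also present, Nbr1 with lower group means than Sqstm1. Ikbke, the kinase nearest to Tbk1, was at most 0.295 RPKM in any sample and at 0 in several.

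**Figure D1:**
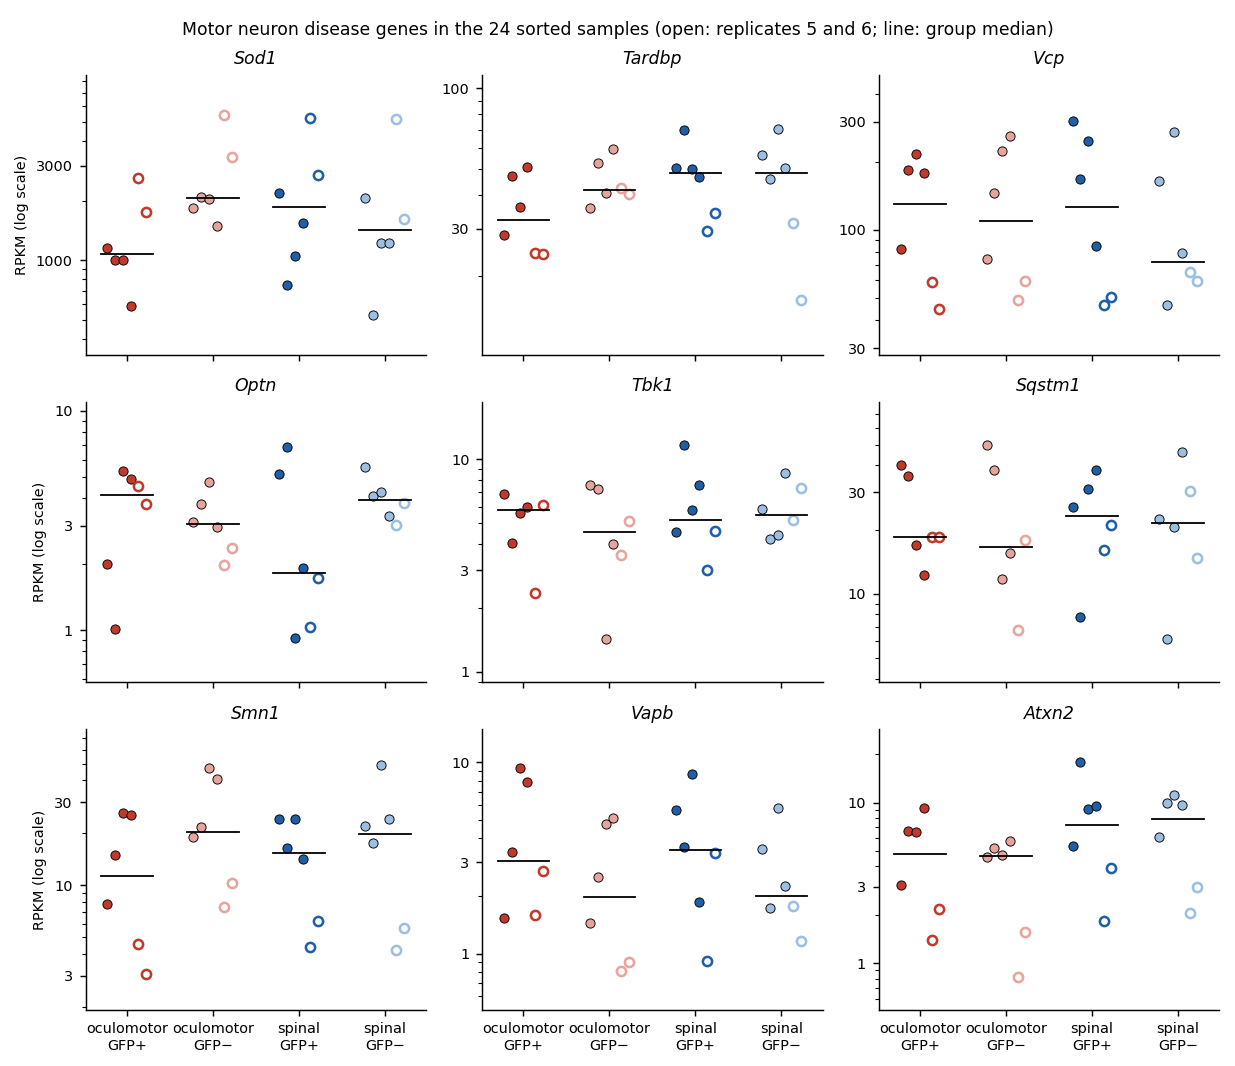
RPKM of the 9 motor neuron disease genes on log axes, 1 point for each sample in the 4 groups of 6; filled points are replicates 1 to 4, open points replicates 5 and 6, and the line is the group median. The ranges of oculomotor and spinal GFP-positive samples overlap in every panel, and the open points sit high for Sod1 and low for Smn1 and Atxn2.

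Oculomotor and spinal motor neurons, taken as the GFP-positive samples, did not differ detectably in any of the 9 genes. Sums of pluripotency and neuronal markers overlapped between the 2 sides. In the limma fit given below, 0 of 6 pluripotency and 0 of 11 neuronal markers passed. At an unadjusted p under 0.05, 3 of 6 and 4 of 11 did. Pluripotency genes summed to 1.01 to 259 RPKM in oculomotor and 15.4 to 12398 RPKM in spinal samples. Neuronal markers summed to 1743 to 3966 and 98.9 to 2781 RPKM. The part of other cells in this comparison was not tested. In the limma fit of the 12 GFP-positive samples on log2(RPKM + 1), 0 of 9 members passed an adjusted p of 0.05, where 116 of 19240 genes tested did (0.603%). At an unadjusted p under 0.05 it was also 0 of 9, against 1951 of all genes. The study's own count test of these 2 groups called more genes at the same adjusted threshold, so a member not called here may still differ. Sod1 was 588, 1075 and 2599 RPKM (lowest, median, highest) in oculomotor and 749, 1858 and 5248 RPKM in spinal motor neurons. Its spinal median was the higher, but the ranges overlapped, and the log2 difference, oculomotor minus spinal, was -0.60 (SE 0.58, adjusted p = 0.759). The 95% interval of -1.85 to 0.65 leaves room for sizeable differences in both directions. Without the spinal replicate 5 the difference was -0.30, and without the oculomotor replicate 4 it was -0.39.

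Tardbp, Atxn2 and Smn1 also had lower means in oculomotor than in spinal motor neurons. Tardbp was 24.2, 32.2 and 51.0 RPKM in oculomotor and 29.4, 48.4 and 70.04 RPKM in spinal samples, a log2 difference of -0.41 (95% interval -1.01 to 0.19, adjusted p = 0.654). Atxn2 was 1.39, 4.80 and 9.24 RPKM against 1.83, 7.22 and 17.9 RPKM, a difference of -0.55 (-1.62 to 0.52, adjusted p = 0.738). It was -0.28 without the spinal replicate 2, -0.33 without the oculomotor replicate 5 and -0.83 without the spinal replicate 5. Smn1 was 3.07, 11.3 and 25.9 RPKM against 4.43, 15.2 and 24.0 RPKM, a difference of -0.25 (-1.44 to 0.94, adjusted p = 0.914). For none of the 3 did the groups separate, and the intervals all held 0.

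The protein clearance and membrane members gave small differences of both signs. The log2 differences were -0.12 for Vcp, 0.33 for Optn, -0.18 for Tbk1, 0.05 for Sqstm1 and 0.08 for Vapb, with adjusted p from 0.843 to 0.981. Optn was 1.01, 4.14 and 5.31 RPKM in oculomotor and 0.92, 1.82 and 6.87 RPKM in spinal motor neurons, so that its spinal samples held both the lowest and the highest value. The widest interval among these 5 was that of Vcp, -1.32 to 1.09, and the narrowest that of Tbk1, -0.91 to 0.55. For 0 of 9 members were the ranges of the GFP-positive groups apart, as they were for 1.24% of all genes. The median difference of the 9 members was -0.18, and that of all genes tested -0.04.

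The GFP-negative fractions of the 2 cultures gave a background for this comparison. Again 0 of 9 members passed, while 213 of 22179 genes did (0.96%), and 0 of 9 had an unadjusted p under 0.05 against 2500 of all genes. The sign of the Sod1 difference was opposite to that in the motor neurons: 1482, 2068 and 5420 RPKM in oculomotor against 530, 1416 and 5156 RPKM in spinal GFP-negative samples, a log2 difference of 0.66 (-0.51 to 1.83, adjusted p = 0.697). Atxn2 was lower in the oculomotor culture in this fraction too (0.82, 4.66 and 5.76 against 2.06, 7.88 and 11.1 RPKM), with a difference of -0.71 (-1.71 to 0.28, adjusted p = 0.608). Without the spinal replicates 2 and 4 the differences were 0.19 for Sod1 (adjusted p = 0.974) and -0.40 for Atxn2 (adjusted p = 0.882), and without the oculomotor replicate 5 they were 0.43 and -0.46. The ranges of the GFP-negative groups were apart for 0 of 9 members and for 1.27% of all genes. In both fractions Atxn2 had the lower mean in the oculomotor cultures, and in neither was the difference larger than the spread between samples.

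**Figure D2:**
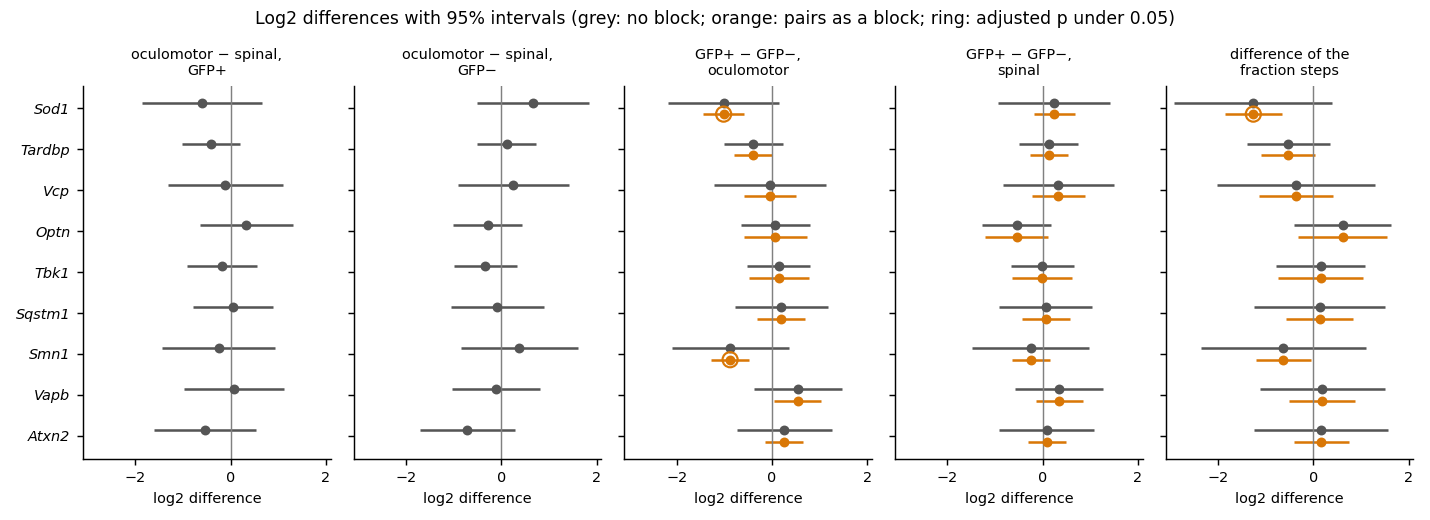
Log2 differences of the 9 members with 95% intervals in the 5 comparisons, in log2(RPKM + 1): grey for the fits without a block, orange for the fits with the sorted pairs as a block, and a ring where the adjusted p was under 0.05. Rings appear for Sod1 (-1.02) and Smn1 (-0.88) between the oculomotor fractions and for Sod1 (-1.26) in the difference of the fraction steps, all in the paired fits.

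Sod1 and Smn1 were lower in oculomotor GFP-positive cells than in the GFP-negative cells sorted from the same cultures. Sod1 was 588, 1075 and 2599 RPKM in the positive and 1482, 2068 and 5420 RPKM in the negative samples. The 2 ranges overlapped, but within each of the 6 pairs the positive sample was the lower, by 0.68 to 1.33 on the log2 scale. On average the negative fraction was 2.02-fold higher. Without the pairing, limma gave a log2 difference of -1.02 (SE 0.57, adjusted p = 0.378), and with the pairs as a block the same difference had an SE of 0.20 and an adjusted p of 0.00345.

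Smn1 was 3.07, 11.3 and 25.9 RPKM in the positive and 7.52, 20.2 and 47.4 RPKM in the negative oculomotor samples, and the positive sample was lower in 6 of 6 pairs, by 0.51 to 1.47 on the log2 scale. The negative fraction was 1.84-fold higher on average. The log2 difference was -0.88 (SE 0.59, adjusted p = 0.508 without the block, SE 0.19 and adjusted p = 0.0057 with it). The reads behind Smn1 in these 12 libraries numbered 55 to 352. Without the pairs 0 of 9 members passed, beside 1364 of 22179 genes (6.15%). With the pairs 2 of 9 passed, both lower in the positive fraction, beside 3644 genes in either direction (16.4%) and 1821 that were lower (8.21%). Both calls were kept when each of the 12 pairs of either culture was left out in turn, with adjusted p up to 0.0162 for Sod1 and 0.0254 for Smn1. Leaving out a spinal pair cannot change these differences, which rest on the 6 oculomotor pairs. It changes only the spread that the cultures share in the fit. In replicates 1 to 4 alone Sod1 kept its call (log2 -1.02, adjusted p = 0.0423) and Smn1 did not (log2 -0.80, adjusted p = 0.0614).

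**Figure D3:**
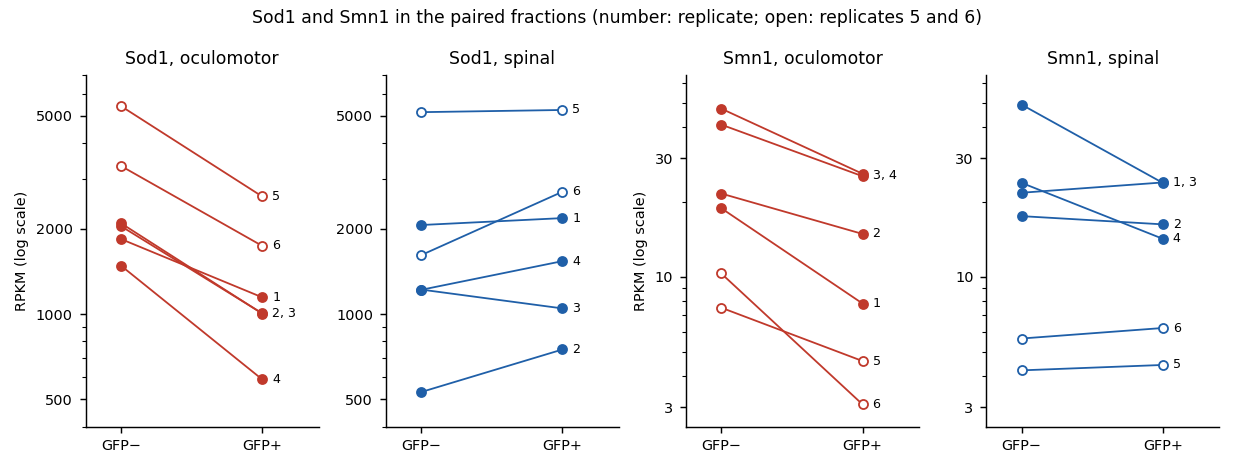
Sod1 and Smn1 in RPKM (log axes) in the paired GFP-negative and GFP-positive samples of each culture, with lines joining the fractions of 1 replicate, numbers naming the replicate and open symbols marking replicates 5 and 6. All 6 oculomotor lines fall for both genes, and the spinal lines go both ways.

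The ranges of the oculomotor fractions were apart for 0 of 9 members and for 6.52% of all genes. Tardbp and Vapb also went 1 way in all 6 oculomotor pairs without passing the test. Tardbp was lower in the positive sample of each pair, by 0.15 to 0.78 (mean log2 difference -0.39, adjusted p = 0.584 without and 0.186 with the block). With the samples rescaled to a common median ratio in addition to the block, its difference of -0.44 had an adjusted p of 0.0467. Vapb was higher in the positive sample of each pair, by 0.05 to 0.96, with 1.54, 3.04 and 9.27 RPKM in the positive and 0.81, 1.97 and 5.09 RPKM in the negative fraction (log2 0.54, adjusted p = 0.636 without and 0.135 with the block). Of all genes tested, 11.2% were lower and 12.0% higher in the positive sample of all 6 oculomotor pairs, beside 3 of 9 members lower (Sod1, Tardbp and Smn1) and 1 higher (Vapb). The other 5 members went both ways: 3 of 6 pairs each for Vcp, Tbk1 and Sqstm1, 4 of 6 higher for Optn and 5 of 6 higher for Atxn2.

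Markers of other cells moved with this contrast. In the oculomotor GFP-negative samples the summed level of 6 pluripotency genes was 685 to 9875 RPKM and that of 8 proliferation genes 242 to 606 RPKM, against 1.01 to 259 and 71.8 to 346 RPKM in the positive ones. The 11 neuronal markers summed to 33.6 to 73.1 RPKM in the negative and 1743 to 3966 RPKM in the positive samples. No pluripotency gene was at 0 in all samples of either fraction. The part of these cells in the differences of Sod1 and Smn1 was not tested. In bulk samples, fewer cells of a type that uses a gene and less RNA of that gene in each cell cannot be told apart.

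In the spinal cultures the fractions showed no such step. Sod1 was 749, 1858 and 5248 RPKM in GFP-positive and 530, 1416 and 5156 RPKM in GFP-negative samples, higher in the positive sample of 5 of 6 pairs, with a log2 difference of 0.24 (95% interval with the block -0.18 to 0.67, adjusted p = 0.542). Smn1 was higher in 3 of 6 pairs and lower in 3 (log2 -0.25, adjusted p = 0.501 with the block). Optn had the largest difference of the members here, -0.55, with 0.92, 1.82 and 6.87 RPKM in positive and 3.02, 3.94 and 5.55 RPKM in negative samples. It was lower in the positive sample of 5 of 6 pairs, and its adjusted p was 0.648 without and 0.377 with the block. None of the 9 members went 1 way in all 6 spinal pairs, as 5.06% of all genes did, and for none were the ranges of the fractions apart, as for 0.469% of all genes. In the limma fits 0 of 9 passed with or without the block, beside 272 (1.23%) and 649 (2.93%) of 22179 genes. At an unadjusted p under 0.05 it was also 0 of 9 in both fits, beside 2315 and 3913 genes.

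In the spinal pairs, neuronal markers summed to 98.9 to 2781 RPKM in the positive and 103 to 756 RPKM in the negative samples, and pluripotency genes to 15.4 to 12398 and 95.3 to 5770 RPKM. The 9 neural progenitor markers had median sums of 359 RPKM in the positive and 1155 RPKM in the negative spinal samples, and of 185 and 390 RPKM in the oculomotor ones. The part of these cells in the spinal values was not tested. Without the spinal GFP-negative replicates 2 and 4, the spinal Sod1 difference changed its sign to -0.23 (adjusted p = 0.965).

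The step of Sod1 between the fractions differed between the cultures in the paired fit only. Its pair differences ran from -1.33 to -0.68 in the oculomotor and from -0.22 to 0.74 in the spinal cultures and did not overlap. The same held for 2.6% of all genes and for no other member. The interaction, which is the oculomotor step minus the spinal step, was -1.26 on the log2 scale (SE 0.80, adjusted p = 0.819 without the block, SE 0.28 and adjusted p = 0.0367 with it). With the block 1 of 9 members passed, beside 453 of 22179 genes (2.04%), and without it 0 of 9, beside 71 (0.32%). It was lost in 10 of 12 fits that left out 1 pair, among them that without spinal pair 4 (log2 -1.24, adjusted p = 0.0589), while the value stayed between -1.35 and -1.16. In replicates 1 to 4 alone it was -1.20 with an adjusted p of 0.282. Without the block, leaving out the spinal GFP-negative replicates 2 and 4 moved it to -0.79 (adjusted p = 0.768). For Smn1 the interaction was -0.63 (95% interval with the block -1.19 to -0.06, adjusted p = 0.266), so that its oculomotor step was not shown to differ from the spinal one.

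**Figure D4:**
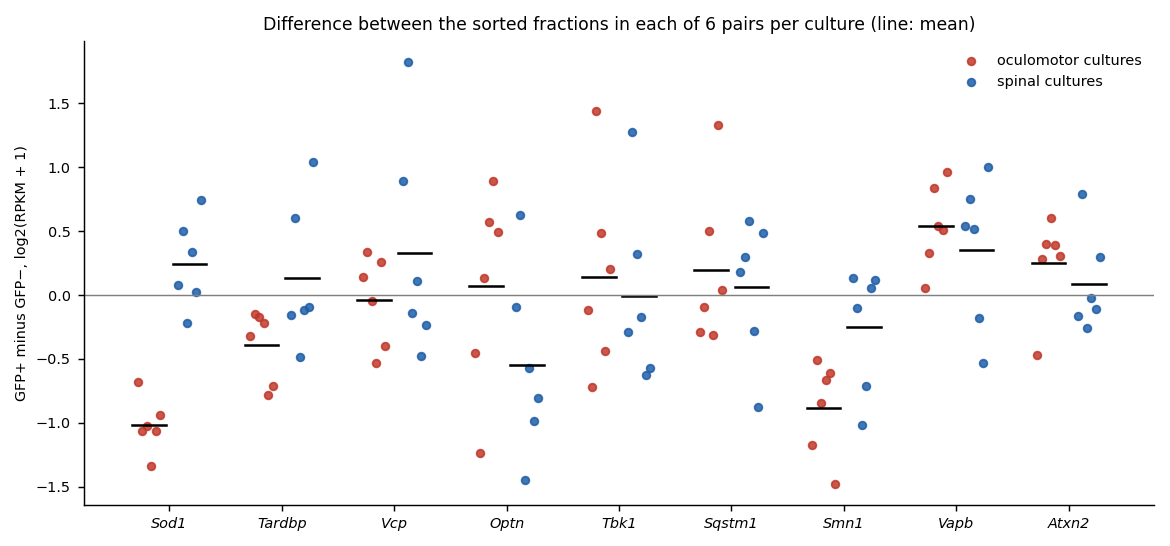
GFP-positive minus GFP-negative difference in log2(RPKM + 1) of the 9 members, 1 point for each of 6 pairs in oculomotor (red) and spinal (blue) cultures, with the mean as a line. For Sod1 the red points (-1.33 to -0.68) lie below all blue points (-0.22 to 0.74), and for Vapb all red points are above 0.

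Partners of the members were counted in lists of related genes. The 16 genes of the SMN complex and the Sm proteins that it loads onto small nuclear RNA had a median log2 difference of -0.97 between the oculomotor fractions, beside 0 for all genes tested. Of the 16, 3 were lower in the positive fraction without the block and 9 with it, and 0 were higher, where 6.15% of all genes were called in either direction without the block and 8.21% were lower with it. The 3 were Gemin2, the partner that binds the SMN protein directly (6.72 ± 4.03 RPKM in positive and 21.8 ± 6.61 RPKM in negative samples, log2 -1.68, adjusted p = 0.0194), and the Sm proteins Snrpg (log2 -1.15, adjusted p = 0.0201) and Snrpd1 (log2 -1.13, adjusted p = 0.0226). In the spinal cultures 0 of 16 passed without the block and 1, Coil, with it, at a median of -0.07. Of all genes, 1.23% and 2.93% were called in these spinal fits. Smn1 itself was at -0.88 in the oculomotor cultures.

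Among 13 antioxidant enzymes and the copper chaperone of Sod1, 2 were lower in the oculomotor positive fraction without the block and 3 with it, with 0 higher and a median of -0.27. Of all genes tested, 6.15% were called in either direction without the block, and 8.21% were lower with it. Those called on this list were the peroxiredoxin Prdx1 (125 ± 76.8 RPKM in positive and 497 ± 212 RPKM in negative samples, log2 -2.02, adjusted p = 0.00949), the glutathione reductase Gsr (log2 -1.78, adjusted p = 0.00548) and, with the block, the thioredoxin Txn1 (log2 -1.20, adjusted p = 0.000282). Sod2, the mitochondrial superoxide dismutase, went the other way in sign. It was higher in the positive sample of 6 of 6 oculomotor pairs, by a mean of 0.26 on the log2 scale. The same held for 12.0% of all genes tested. Sod2 was also higher in the positive sample of 4 of 6 spinal pairs, with a mean difference of 0.45 over the 6. In the spinal cultures 0 of 13 passed in either fit, at a median of -0.05.

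Of 13 relatives of Tardbp, 0 passed between the oculomotor fractions without the block and 1, Tia1, with it (log2 0.73, adjusted p = 0.0239, higher in the positive fraction). Of 11 stress granule partners of Atxn2, 0 passed without and 4 with the block, all lower in the positive fraction, with the poly(A)-binding proteins Pabpc4 (log2 -1.03, adjusted p = 0.000831) and Pabpc1 (log2 -0.90, adjusted p = 0.00254) and the granule scaffold G3bp1 (log2 -0.88, adjusted p = 0.00289) at their head. Between the oculomotor fractions 16.4% of all genes were called with the block, and 8.21% were lower. The 1 of 13 relatives of Tardbp is not above that 16.4%. In the spinal cultures 0 of the 24 genes on both lists passed in either fit.

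The lists around the clearance and membrane members had positive medians between the oculomotor fractions. Of 19 autophagy receptors, Tbk1 partners and Atg8 proteins, 1 was higher without the block and 6 with it, 0 were lower, and the median was 0.60. The count of 1 is near the 6.15% of all genes called in that fit, and with the block 16.4% were called. Wdfy3, a large scaffold of aggregate autophagy, was 15.01 ± 8.12 RPKM in positive and 2.55 ± 0.96 RPKM in negative samples (log2 2.06, adjusted p = 0.000244). Of 19 Vcp cofactors, 0 passed without the block and 2 with it, both higher, among them the deubiquitinase Yod1 (log2 1.61, adjusted p = 0.00147), at a median of 0.33. The 2 of 19 are below the 16.4% of all genes called with the block. Of 16 genes around Vapb, 3 were higher in both fits and 0 lower, at a median of 0.41: Zfyve27, which encodes protrudin (log2 1.24, adjusted p = 0.0177), the lipid transfer protein Vps13c (log2 1.19, adjusted p = 0.00732) and the oxysterol-binding protein Osbp (log2 1.02, adjusted p = 0.0269). Beside these 3 of 16, 6.15% of all genes were called without the block and 16.4% with it. The 5 members of these processes were at -0.04 (Vcp), 0.07 (Optn), 0.14 (Tbk1), 0.19 (Sqstm1) and 0.54 (Vapb) in the same comparison, and none passed.

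Of 36 other genes linked to motor neuron disease, 4 were higher and 3 lower in the oculomotor positive fraction without the block, and 4 and 9 with it, beside 6.15% and 16.4% of all genes called in either direction. Kif5a, a kinesin that carries cargo along axons, was higher in both cultures (log2 3.19, adjusted p = 0.00013 in oculomotor and 2.04, adjusted p = 0.0292 in spinal). The small heat shock protein gene Hspb1 (log2 -4.58, adjusted p = 0.0045) and the mitochondrial Chchd10 (log2 -3.14, adjusted p = 0.0134) were lower in the oculomotor positive fraction. In the spinal cultures without the block 2 of 36 were higher (Kif5a and the intermediate filament gene Prph, log2 2.29, adjusted p = 0.0365) and 1 lower (Ang, log2 -1.495, adjusted p = 0.0247), and with the block 2 were higher and 3 lower, beside 1.23% and 2.93% of all genes.

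In the GFP-positive samples 0 of the 143 genes on these 8 lists differed between the cultures, with medians from -0.42 (relatives of Tardbp) to 0.03 (Vcp cofactors) beside -0.04 for all genes. Of the 143, 16 had an unadjusted p under 0.05, a share near that of all genes (1951 of 19240). In the GFP-negative comparison, without the block, 1 of 36 other disease genes was higher in oculomotor samples (the kinase gene Vrk1, log2 1.91, adjusted p = 0.0118) and 1 lower (the ceramidase gene Asah1, log2 -1.39, adjusted p = 0.0193), and 0 genes of the other 7 lists passed. That fit called 0.96% of all genes.

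Levels of several members also differed between sets of replicates. In replicates 5 and 6, which formed the deeper set, Sod1 was 1613, 3016 and 5420 RPKM (8 samples), against 530, 1218 and 2180 RPKM in the 16 samples of replicates 1 to 4. Smn1 went the other way, with 3.07, 5.12 and 10.3 against 7.81, 22.8 and 49.2 RPKM, as did Atxn2 (0.82, 1.95 and 3.89 against 3.05, 6.58 and 17.9 RPKM) and Vcp (44.8, 54.4 and 65.2 against 46.5, 173 and 304 RPKM). These 4 shifts had the same sign in all 4 groups. The mean shift was 1.34 on the log2 scale for Sod1, -1.86 for Smn1, -1.47 for Atxn2 and -1.47 for Vcp, and the median over 11952 genes with a mean of at least 1 RPKM was -0.37. Smn1 lay at percentile 3.09 of those genes, Vcp at 7.97, Atxn2 at 7.92 and Sod1 at 94.9.

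Over all members the shift was negative in 8 of 9, as in 67.1% of genes. Across 11717 genes it was correlated with the GC content of the longest transcript (Spearman's rho -0.42) and hardly with its length (-0.06), as a description over genes that are not independent. Vapa shifted opposite to Vapb, by 2.40 against -0.92, and was 530 to 1934 RPKM in replicates 5 and 6 against 66.0 to 311 RPKM in replicates 1 to 4. No member had ranges of the 2 sets wholly apart, as 1.06% of genes had in the lower and 0.636% in the higher direction. Each group holds 4 samples of the first and 2 of the second set, and the part of depth in these shifts was not tested.

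**Figure D5:**
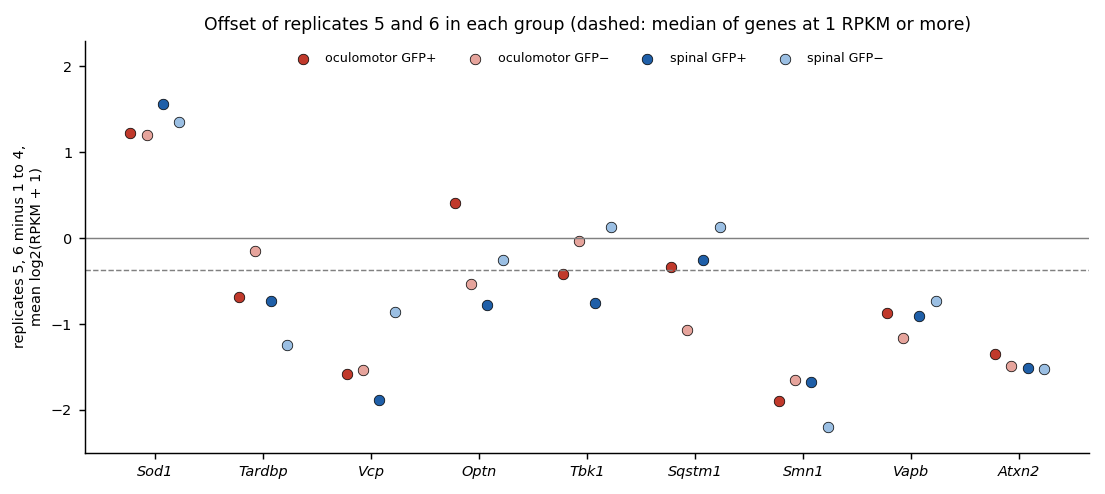
Mean log2(RPKM + 1) of replicates 5 and 6 minus that of replicates 1 to 4 for each member in the 4 groups, with the median of genes at 1 RPKM or more dashed. Sod1 is above 0 in all 4 groups and Vcp, Smn1, Vapb, Atxn2 and Tardbp are below 0 in all 4.

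The genes most alike in pattern over the 24 samples differed between the members. For Smn1 they were the ribosomal protein genes Rplp2 and Rpsa (Pearson r 0.96 each), and for Sod1 the ATP synthase subunit genes Atp5g1 and Atp5h (0.86 and 0.85). Tardbp was most like the splicing factor genes Sf1 and U2af2 (0.91 and 0.89), Atxn2 like Ell and Celf1 (0.93 and 0.92), Vcp like Acvr2b and Ap1b1 (0.96 and 0.95) and Vapb like RP23-3F1.8 and Borcs6 (0.95 each). Values for Sqstm1 (Tubg2, 0.84), Tbk1 (Abl1 and Pnrc1, 0.79 and 0.71) and Optn (Pacsin3 and Mettl8, 0.67 and 0.63) were lower. Among the members themselves the closest pair was Vcp and Vapb (r 0.84) and the most opposed Sod1 and Atxn2 (r -0.80). These correlations, across 24 samples that share the replicate sets above, are descriptions of pattern.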

How the data were processed

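RNA of sorted cells was sequenced by SMART-seq2, which has no molecular identifiers and marks no strand. The deposited values are RPKM that the authors computed with rpkmforgenes. The submitters' processing notes name HISAT2 2.0.3, DESeq2 1.12.4 and the mouse build mm10. Whole read numbers were recovered from the steps of the RPKM for depth and for 8 members only, and no count test was run.

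Genes above 0 RPKM in at least 2 fitted samples were tested on log2(RPKM + 1) with limma 3.58.1 (limma-trend, R 4.3.3), and p-values were adjusted by Benjamini-Hochberg over all genes tested, with a threshold of 0.05. The pseudocount understates changes of low genes. The GFP-positive comparison used its 12 samples, the others all 24. Nothing in the labels says that replicates were separate cultures, so p-values measure the spread between these samples, which may be technical. Fractions of a culture were paired by replicate number. Same-numbered fractions deviated together (correlations 0.379 to 0.728 in oculomotor and 0.421 to 0.661 in spinal pairs, over 11952 genes). Differently numbered fractions were not compared. Replicates 5 and 6 also correlated across the cultures (0.707 and 0.600 in GFP-positive samples), so these values do not establish the pairing. Calls made with the pair as a block rest on it, and those fits are given beside the fits without.

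The text names all members and, of each list, up to 3 called genes with the largest change, and for each member the 2 genes most alike in pattern; some of these are not reported here. Members and lists were chosen with earlier results of these data known. Alternatives changed the pseudocount, filter, scaling, weights, samples and block; those leaving out a pair with the block, the block in replicates 1 to 4, the block with rescaling, and the fit without spinal pair 4 were chosen after seeing the data. The fits were tested on simulated data. Promoters came from RefSeq (GRCm38.p6; 9 of 9 members matched) and gene positions from GENCODE.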

Additional observations from a re-analysis of the deposited data

Results flagged for a closer look

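The step of Sod1 between the sorted fractions differed between the cultures, by the interaction term of the limma fit with the sorted pairs as a block: -1.26 on the log2 scale, adjusted p = 0.0367. Sod1 was lower in the GFP-positive sample of 6 of 6 oculomotor pairs and higher in that of 5 of 6 spinal pairs. Without the block the adjusted p was 0.819, and the call was lost in 10 of 12 fits that left out a pair.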

How the results depend on the processing

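With the sorted pairs as a block 2 members were called between the oculomotor fractions and 1 in the interaction, against 0 and 0 without it. With rescaling added to the block the counts were 3 and 1, and in replicates 1 to 4 with the block 1 and 0. Leaving out samples or pairs in turn gave 0 to 2 members called between the oculomotor fractions, 0 to 1 in the interaction, 0 to 1 between the GFP-negative samples (Atxn2, log2 -0.76, adjusted p = 0.0419, with the block and without spinal pair 4) and 0 in the other comparisons. Across cultures same-numbered samples did not all deviate together (correlations -0.175 to 0.707 in GFP-positive and -0.0386 to 0.612 in GFP-negative samples, above 0.1 in 4 of 6 each), so the numbers are not taken to pair them. The block there called 0 members in either fraction, called 2 SMN complex genes (Snrpd1 and Snrpd2) higher and Wdfy3 and Yod1 lower in oculomotor GFP-negative samples, and moved the genes called from 116 to 73 in GFP-positive and from 213 to 563 in GFP-negative samples. Over all alternatives that left out no single sample, genes called ranged from 30 to 342, 39 to 802, 476 to 4013, 0 to 817 and 10 to 555 in the GFP-positive, GFP-negative, oculomotor, spinal and interaction comparisons.

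Recomputed results were set against the main fits, which had no block and called none of the members. Of 495 recomputed results 453 kept direction and side of the threshold, and of 981 that left out a sample or pair 870 did. Keeping the side thus meant staying uncalled. The calls made with the block are among the 8 and 27 results that newly passed, so these counts do not test those calls. All that reversed were differences that passed no test; the cause was not tested. In replicates 1 to 4 alone these were Optn in the GFP-positive comparison (-0.065), Tardbp (-0.25), Sqstm1 (0.32) and Vapb (0.034) in the GFP-negative, Optn (-0.25) and Sqstm1 (-0.051) in the oculomotor, Tardbp (-0.038) and Tbk1 (0.28) in the spinal comparison, and Tbk1 (-0.011) and Sqstm1 (-0.24) in the interaction, the last 6 equally with the block. With sample quality weights they were Vapb GFP-positive (-0.29), Vcp GFP-negative (-0.077), Tbk1 (-0.13) and Atxn2 (-0.12) oculomotor, Vcp (-0.057) and Sqstm1 (-0.17) spinal, and the Atxn2 interaction (-0.18). Without the spinal GFP-negative replicates 2 and 4 they were Vcp GFP-negative (-0.049), Sod1 (-0.23), Tbk1 (0.025) and Sqstm1 (-0.031) spinal, and the Atxn2 interaction (-0.14). Without spinal pair 4 they were Sqstm1 GFP-negative (0.15) and Tbk1 spinal (0.021), and with rescaling, with or without the block, Sqstm1 (-0.022) and Atxn2 (-0.0074) spinal.

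With 1 sample or pair left out, the GFP-positive differences that changed sign ran from -0.38 to 0.16 (Vcp), -0.33 to 0.0025 (Tbk1), -0.21 to 0.22 (Sqstm1), -0.52 to 0.049 (Smn1) and -0.16 to 0.31 (Vapb). The GFP-negative ones ran from -0.14 to 0.27 (Tardbp), -0.39 to 0.26 (Sqstm1) and -0.31 to 0.086 (Vapb), and the oculomotor ones from -0.27 to 0.21 (Vcp), -0.097 to 0.33 (Optn), -0.12 to 0.31 (Tbk1) and -0.076 to 0.47 (Sqstm1). The spinal ones ran from -0.064 to 0.59 (Sod1), -0.13 to 0.28 (Tardbp), -0.27 to 0.14 (Tbk1), -0.25 to 0.33 (Sqstm1), -0.58 to 0.073 (Smn1) and -0.18 to 0.37 (Atxn2), and the interactions from -0.11 to 0.41 (Tbk1), -0.14 to 0.44 (Sqstm1), -0.052 to 0.42 (Vapb) and -0.12 to 0.43 (Atxn2). Optn had 6 reads in its lowest library, the fewest of the 8 members with recovered reads.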
